A study of Rattus norvegicus with 12 samples.

Results

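The 33 voltage-gated cation channel genes described here are rows of the hippocampal count table whose symbols begin with Scn and a digit (sodium channels), Cacna1, Cacna2d or Cacnb (calcium channels), or Hcn and a digit (hyperpolarization-activated channels). They were chosen by name from 17494 genes, with earlier results of these data known. They comprised 9 sodium channel alpha and 3 sodium channel beta subunits, 10 calcium channel alpha1 subunits, 4 alpha2delta subunits, 4 calcium channel beta subunits and 3 HCN channels. Of these, 29 passed the filter on low counts, and Scn10a, Scn11a, Cacna1f and Cacna2d4 did not.

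RNA was sequenced from the brain (hippocampus, by the study's methods) of 12 wild-type male Long Evans hooded rats, 1 library per rat. All 12 rats were exposed to blast overpressure in a shock tube at 10 weeks of age, on 3 consecutive days, were housed singly and were killed 29 weeks later. The blast-control group (rats 1, 4, 5, 6, 7 and 9) ate control chow, and the blast-boldine group (rats 12, 17, 19, 20, 32 and 35) ate the same chow with 500 mg/kg boldine from week 2 after blast. For a habituation before the procedures, the study's methods name the boldine chow without naming a group. The study's rats also went through object recognition tests and fear conditioning with footshocks in the weeks before they were killed. Boldine is an alkaloid of the Chilean boldo tree that blocks open connexin hemichannels. No library of an unexposed rat entered the comparison, so it asks whether boldine diet was accompanied by other channel transcript levels within blast-exposed males and cannot show what blast itself did.

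Sodium channels carry the rising phase of the action potential, and their beta subunits set gating and membrane placement. Calcium channels turn depolarization into calcium entry for transmitter release (P/Q and N types), for signalling to the nucleus (L type) and for burst firing near rest (T type), while alpha2delta and beta subunits bring the alpha1 pore to the membrane. HCN channels open on hyperpolarization and set resting potential and dendritic integration in hippocampal pyramidal neurons.

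Library totals ran from 10148474 to 40850106 gene-assigned counts in 11 libraries, but the library of blast-control rat 6 held 74008. A count of 3 was worth 0.0658 to 0.307 CPM (counts per 1000000 counts of a library, scaled by the TMM method) in the 11 libraries and 47.5 CPM in rat 6, where 10 channel genes had 0 counts. The libraries also fell into 2 sets of 6, called set A (rats 1, 7, 9, 20, 32 and 35) and set B (rats 4, 5, 6, 12, 17 and 19), each with 3 rats of each diet. The sets were inferred from the repeated library suffixes and, among 4 possible assignments, from expression. The assignment kept was the one that best matched the first principal component over 12095 genes. Its share there was 95.6%, against 2.80 to 56.1% for the other assignments. Because this share decided the choice, it is no separate check of the sets. Diet, which was not picked in this way, had a share of 1.55%, so the sets and diet are not compared on equal terms. What the suffix stands for is not given in the sources used here. The hippocampal markers Prox1, C1ql2, Wfs1, Fibcd1, Bok and Grik4 were detected. In the 11 deeper libraries the dentate granule pair summed to 141 to 277 CPM, the CA1 pair to 427 to 749 CPM and the CA3 pair to 95.1 to 182 CPM.

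**Figure D1:**
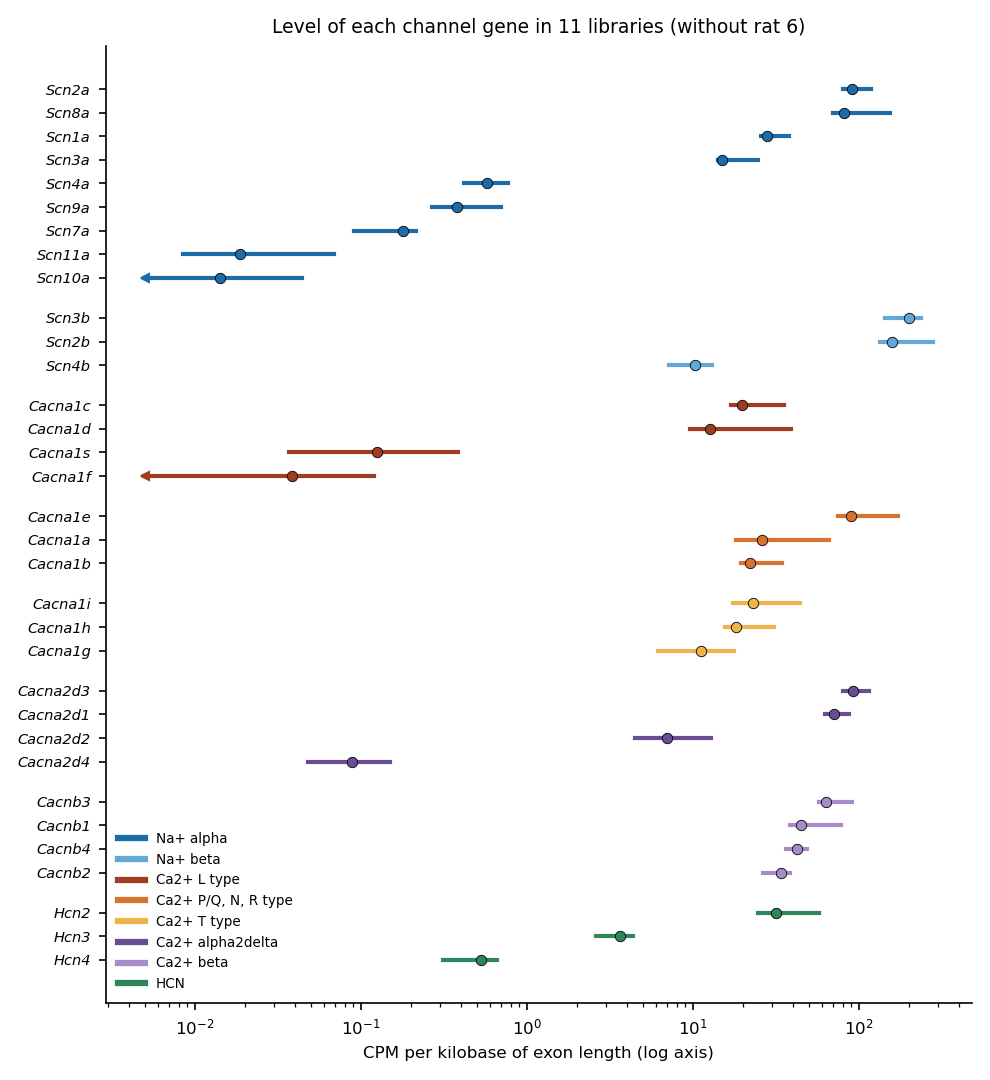
Level of the 33 channel genes in CPM per kilobase of exon length (log axis), by channel class. Points are medians and lines ranges over 11 libraries (without rat 6). An arrow marks a range that reaches 0. Scn3b and Scn2b lie highest, and Scn10a and Scn11a lowest.

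Across the 11 deeper libraries the sodium channels of highest level were those known from central neurons. On the per-length scale, which allows levels of different genes to be compared, Scn2a stood at 91.0 CPM per kilobase (80.7 to 118) and Scn8a at 81.1 (70.0 to 154), and their ranges overlapped. Scn1a followed at 28.0 (25.8 to 38.0) and Scn3a, known for high expression in the developing brain, at 15.0 (14.2 to 24.6), each range apart from the next. The muscle channel Scn4a, the peripheral nerve channel Scn9a and Scn7a were each below 1 CPM per kilobase. The sensory-neuron channels Scn10a and Scn11a, at 0 to 0.157 and 0.0833 to 0.110 CPM in 5 blast-controls and 0.0451 to 0.289 and 0.0497 to 0.406 CPM in 6 blast-boldine rats, lay near or under the value of 3 counts.

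Of the beta subunits, Scn3b had 201 CPM per kilobase (143 to 237) and Scn2b 158 (134 to 279), with overlapping ranges. Scn4b, a subunit linked to resurgent current, was lower at 10.3 (7.19 to 13.1). Among calcium channel pores, the R-type Cacna1e stood at 89.4 CPM per kilobase (75.4 to 173), apart from the P/Q-type Cacna1a at 26.2 (18.1 to 65.9) and the N-type Cacna1b at 22.2 (19.6 to 34.5), which overlapped. The L-type channels of neurons, Cacna1c and Cacna1d, stood at 19.7 (16.9 to 35.5) and 12.7 (9.68 to 39.0), while the skeletal muscle form Cacna1s stood at 0.126 (0.0368 to 0.384). The retinal form Cacna1f had 0.110 to 0.716 CPM in 5 blast-controls and 0 to 0.692 CPM in 6 blast-boldine rats.

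The T-type pores ran from Cacna1i at 23.0 CPM per kilobase (17.5 to 44.01) over Cacna1h at 18.2 (15.7 to 31.0) to Cacna1g at 11.3 (6.18 to 17.6), neighbours overlapping. Cacna2d3 at 92.4 (80.7 to 115) and Cacna2d1 at 70.8 (62.4 to 87.6), the latter a binding site of gabapentin, led the alpha2delta genes, over Cacna2d2 at 7.03 (4.52 to 12.8) and Cacna2d4 at 0.0888 (0.0481 to 0.150). The beta subunits lay close together, from Cacnb3 at 63.6 (57.6 to 90.8) over Cacnb1 and Cacnb4 to Cacnb2 at 34.1 (26.3 to 38.7). Hcn2 stood at 31.6 (24.8 to 57.7), far over Hcn3 at 3.62 (2.62 to 4.35) and the pacemaker form Hcn4 at 0.527 (0.311 to 0.664).

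Several of these genes are neighbours on the rat chromosomes (mRatBN7.2, coordinates as deposited), and neighbours differed widely in level. Scn3a (chr3:50148139-50258119), Scn2a (chr3:50302879-50437214), Scn1a (chr3:50952791-51071699), Scn9a (chr3:51145148-51224135) and Scn7a (chr3:51335969-51411327) form 1 array, in which median levels ran from 0.178 to 91.0 CPM per kilobase. Scn10a (chr8:119350723-119462614) and Scn11a (chr8:119496761-119567044) also lie close together, and neither reached 1 CPM per kilobase. Scn2b (chr8:45425657-45434205) and Scn4b (chr8:45447119-45462292) lie side by side, as do Cacna1c (chr4:151764138-152379454) and Cacna2d4 (chr4:152408657-152520268). Exons of Cacna1h (chr10:14390113-14447791) share 146 bases with Tpsg1 on the opposite strand, and the authors counted by strand. No other of the 33 genes shared exon bases with another row.

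Boldine was not accompanied by a detectable change of any channel gene when all 12 libraries were compared. No channel gene passed an adjusted p of 0.05 (edgeR quasi-likelihood test, Benjamini-Hochberg over 12325 genes), as none did among all genes (0%). At an unadjusted p under 0.05 there were 0 of 29 channel genes, against 1.07% of all genes. Fitted levels were lower in blast-boldine for 16 and higher for 13, with a median log2 fold change of -0.011 for the channel genes and 0.0046 for all genes tested. The fold changes ran from -0.25 for Cacna2d2 to 0.20 for Scn7a. The 95% interval lay within 1 log2 unit of 0 for 27 of 29 and within 0.5 for 8 of 29. DESeq2 on the same libraries also called 0 channel genes at either threshold. Without rat 6, 0 of 29 channel genes passed an unadjusted p of 0.05, against 1.4% of all genes, and 13 were lower and 16 higher.

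**Figure D2:**
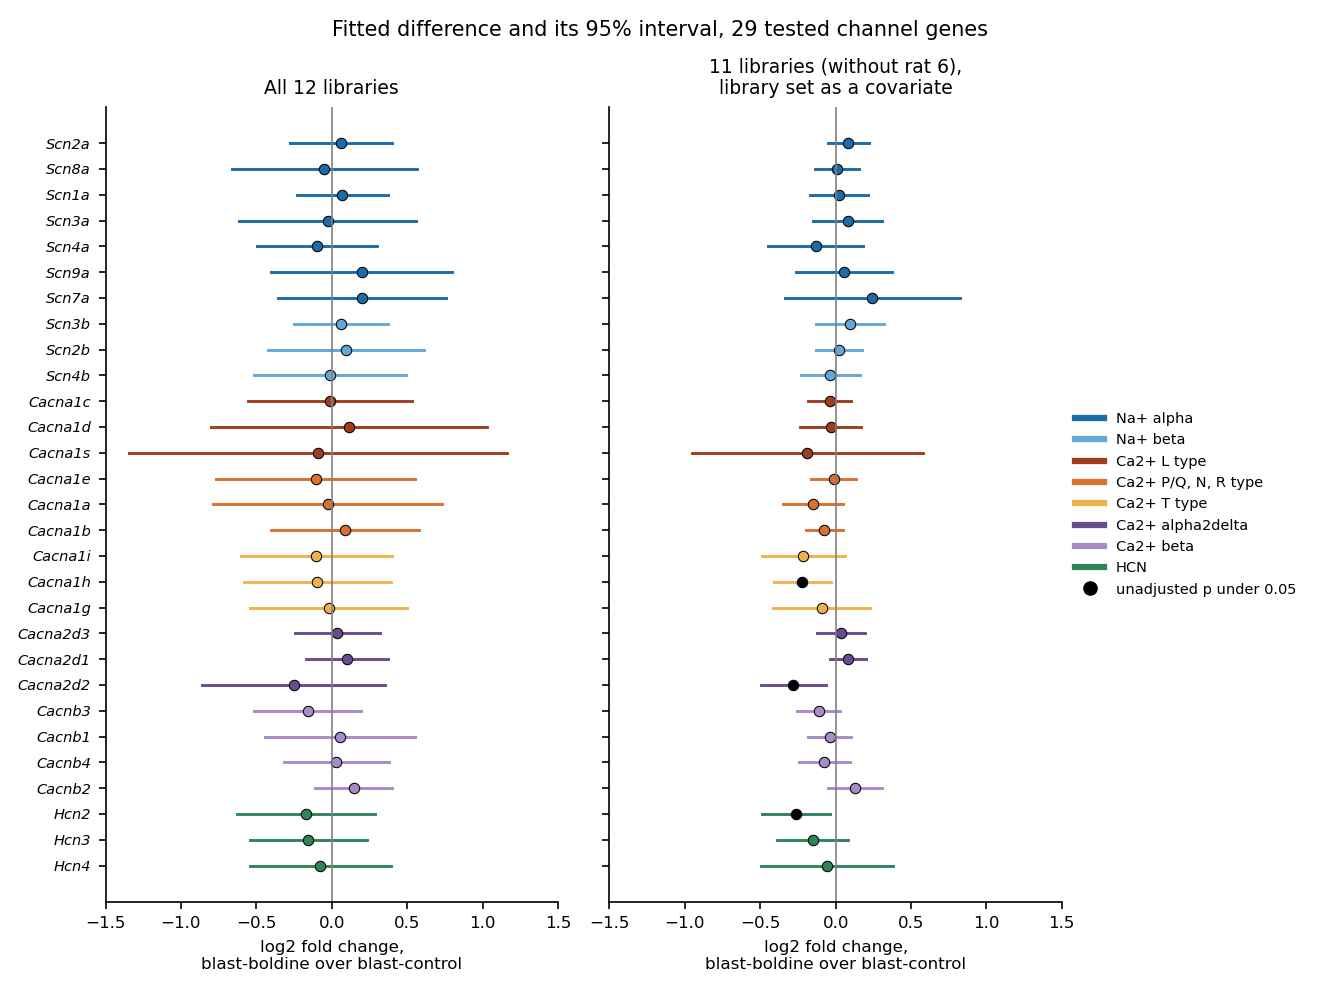
Fitted log2 fold change (blast-boldine over blast-control) of the 29 tested channel genes, with 95% intervals from edgeR. Left, all 12 libraries. Right, 11 libraries without rat 6 and with the library set as a covariate. Every interval on the left crosses 0. On the right the median standard error is 0.0907 in place of 0.230, and the black points of Cacna2d2, Hcn2 and Cacna1h lie below 0.

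With rat 6 left out and the library set as a covariate, 3 of the 29 channel genes passed an unadjusted p of 0.05, and all 3 were lower in blast-boldine: Cacna2d2, Hcn2 and Cacna1h. The background in this fit was 5.35% of 12529 genes in either direction and 3.54% lower. None passed after adjustment, and the smallest adjusted p of a channel gene was 0.90 (edgeR, Benjamini-Hochberg). DESeq2 with the same libraries and covariate had the same 3 genes at an unadjusted p under 0.05, against 4.69% of all genes. In the edgeR fit 18 channel genes were lower and 11 higher, with a median of -0.038 against -0.0082 for all genes. With the set as a covariate and rat 6 kept, 2 of 29 passed an unadjusted p of 0.05 in edgeR (Cacna2d2 and Hcn2), against 3.85% of all genes. An exact two-sided permutation test on mean log2 CPM, with diets exchanged within sets and without rat 6, gave another pair: Cacna2d1 (p = 0.020) and Scn2a (p = 0.035) were the 2 of 29 channel genes under 0.05, against 5.12% of all genes, and both were higher in blast-boldine. It tested pooled group means, and without rat 6 set B held fewer blast-control than blast-boldine rats. The difference between sets therefore entered the statistic, upward for genes higher in set B. For Scn2a the pooled difference was 0.128, against 0.058 in set A and 0.126 in set B. For Cacna2d1 it was 0.115, against 0.073 and 0.101.

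By class in the edgeR fit with the set and without rat 6, 13 of 16 tested calcium channel genes and 3 of 3 HCN genes had lower fitted levels in blast-boldine, beside 2 of 10 sodium channel genes and 52.6% of all genes, a description that rests on genes sharing the same libraries. All 3 T-type pores were lower (median log2 fold change -0.22), as were all 3 L-type pores (-0.038) and all 3 P/Q-, N- and R-type pores (-0.074). The calcium channel beta subunits had 3 of 4 lower (-0.058), and the HCN channels a median of -0.15. Of the sodium alpha subunits 1 of 7 was lower (0.058), of the sodium beta subunits 1 of 3 (0.022) and of the alpha2delta subunits 1 of 3 (0.034). In all 12 libraries the calcium channel genes had 9 of 16 lower and the sodium channel genes 4 of 10. The 95% interval in the fit with the set lay within 1 log2 unit of 0 for all 29 channel genes and within 0.5 for 27, so larger differences than these were outside the intervals. The 2 genes with wider intervals were Scn7a (-0.34 to 0.82) and Cacna1s (-0.95 to 0.58).

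Cacna2d2 encodes an alpha2delta subunit found in cerebellar and inhibitory neurons, and was the least expressed alpha2delta gene that could be tested. In set A it had 24.6, 24.4 and 21.8 CPM in blast-control rats 1, 7 and 9, and 20.8, 20.6 and 15.8 CPM in blast-boldine rats 20, 32 and 35. In set B it had 35.9 and 44.8 CPM in blast-control rats 4 and 5, and 35.3, 31.3 and 36.7 CPM in blast-boldine rats 12, 17 and 19. The diets did not overlap in set A and overlapped in set B, and rat 6 stood at 79.2 CPM on 5 counts. The log2 fold change was -0.28 ± 0.10 (SE), 95% interval -0.49 to -0.065, unadjusted p = 0.015, against -0.25 ± 0.28 (SE) in all 12 libraries. On mean log2 CPM, the exact two-sided permutation p was 0.25 when diets were exchanged over all 12 libraries and 0.010 when they were exchanged within sets. Once rat 6 was left out, the exact permutation p within sets was 0.21. The pooled difference tested there was -0.194, against -0.317 in set A and -0.223 in set B. The sets were then uneven over diets, so this p is not adjusted for the set. The 4 markers of inhibitory neurons (Gad1, Gad2, Pvalb and Sst, none at 0) summed to 343 to 500.03 CPM in the 5 deeper blast-control libraries and 366 to 507 CPM in blast-boldine, and their part in this difference was not tested.

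Hcn2 encodes the HCN channel of intermediate speed that is widespread in brain. In set A the blast-controls had 75.6, 78.2 and 82.9 CPM and the blast-boldine rats 65.2, 69.4 and 65.4 CPM, with no overlap. In set B, blast-control rat 4 had 152 CPM and rat 5 92.1 CPM, while the blast-boldine rats had 91.7, 98.6 and 109.8 CPM, which surrounded rat 5 but not rat 4. Its log2 fold change was -0.26 ± 0.10 (SE), 95% interval -0.49 to -0.038, unadjusted p = 0.025. Without rat 4 as well it was -0.13 ± 0.082 (SE), unadjusted p = 0.15. The exact permutation p within sets and without rat 6 was 0.215. It tested a pooled difference of -0.184, not adjusted for the set, against -0.241 in set A and -0.244 in set B.

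Cacna1h, the T-type channel also known as Cav3.2, had 134, 136 and 143 CPM in the blast-controls of set A and 127, 123 and 133 CPM in its blast-boldine rats, the highest of which lay just under the lowest control. In set B the blast-control values were 244 CPM in rat 4 and 179 CPM in rat 5, and the blast-boldine values 158, 187 and 153 CPM. The log2 fold change was -0.22 ± 0.087 (SE), 95% interval -0.41 to -0.032, unadjusted p = 0.025, and without rat 4 as well -0.11 ± 0.064 (SE), unadjusted p = 0.11. The exact permutation p within sets and without rat 6 was 0.17. It tested a pooled difference of -0.164, not adjusted for the set, against -0.106 in set A and -0.342 in set B. For Cacna2d2, leaving out rat 4 gave -0.34 ± 0.094 (SE), unadjusted p = 0.0037, and leaving out rat 5 gave -0.23 ± 0.11 (SE), unadjusted p = 0.051. Rat 4, without which Hcn2 and Cacna1h did not pass, was also the highest of the 11 deeper libraries for Cacna1i and Cacna1a. It was the highest of them as well for the summed markers of neurons (2572 CPM), dentate granule cells (277 CPM) and CA1 (749 CPM). Within set B without rat 6, rat 4 was also highest for astrocytes (2039 CPM), oligodendrocytes (4169 CPM), microglia (170 CPM) and CA3 (148 CPM). There it was lowest for inhibitory neurons (355 CPM), thalamus (47.9 CPM), endothelium (163 CPM), smooth muscle (48.5 CPM) and precursors (184 CPM). The CA1 pair (Wfs1 and Fibcd1, neither at 0) summed to 543 to 749 CPM in the 5 deeper blast-control libraries and 427 to 589 CPM in blast-boldine. The dentate granule pair summed to 141 to 277 CPM and 165 to 274 CPM in the same order. Over both diets it summed to 141 to 185 CPM in set A and 204 to 277 CPM in set B. Without rat 6 the sets were uneven over diets, so these pooled ranges do not compare the diets alone. The part of these markers in the differences of Hcn2 and Cacna1h was not tested.

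**Figure D3:**
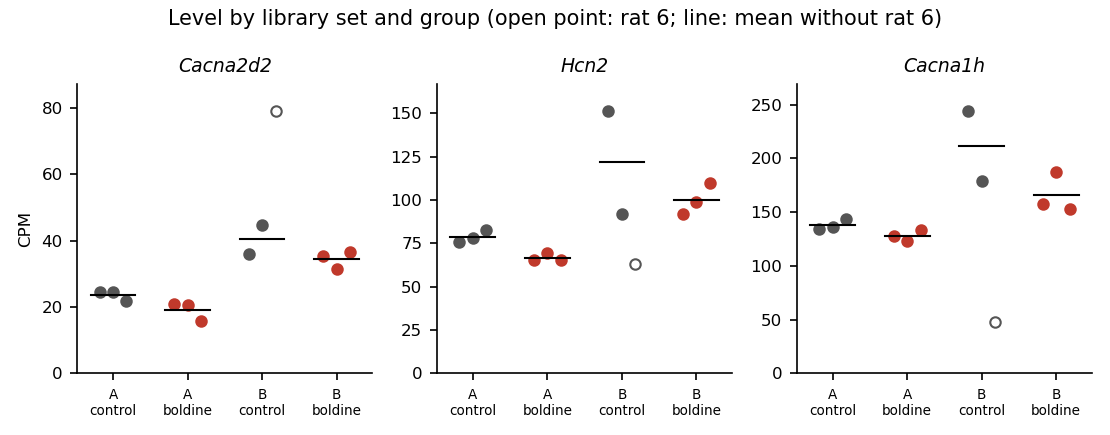
CPM of Cacna2d2, Hcn2 and Cacna1h by library set (A, B) and diet. Filled points are single libraries, the open point is rat 6, and lines are means without rat 6. In set A the blast-boldine points lie below the blast-controls for all 3 genes, and in set B the 2 diets overlap for Cacna2d2, Hcn2 and Cacna1h.

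Counted over the sets, 5 of the 29 channel genes had every blast-boldine library of set A below every blast-control library (Cacna2d2, Hcn2, Cacna1h, Cacnb4 and Hcn4), against 3.97% of all genes, and 0 had them above, against 2.98%. In set B, where 2 blast-controls faced 3 blast-boldine rats, only Hcn3 lay below without overlap, against 11.3% of all genes, and Scn2a, Cacna2d1 and Hcn4 lay above, against 11% of all genes. No channel gene lay below in both sets, against 0.694% of all genes. Hcn4 was thus lower with boldine in set A (1.54 to 2.48 against 2.48 to 2.62 CPM) and higher in set B (1.88 to 2.31 against 1.23 to 1.88 CPM). These ranges meet within rounding, and the difference between the sets was not tested.

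The upstream sequences of the Hcn2 and Cacna2d2 genes are shown because these genes and Cacna1h were the 3 with an unadjusted p under 0.05. They are the 250 bases before each annotated start in RefSeq (GRCr8, 5′ to 3′ on the gene's strand), with matches to GCGNGGGCG on either strand, the motif of EGR-type zinc finger factors, in capitals. Hcn2 is at chr7:10639458-10639707 on the minus strand and Cacna2d2 at chr8:116950856-116951105 on the plus strand.
Hcn2: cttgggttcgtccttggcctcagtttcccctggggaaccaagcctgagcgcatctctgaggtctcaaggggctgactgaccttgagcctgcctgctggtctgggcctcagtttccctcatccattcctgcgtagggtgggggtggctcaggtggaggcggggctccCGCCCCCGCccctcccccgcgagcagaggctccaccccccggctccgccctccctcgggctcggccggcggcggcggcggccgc
Cacna2d2: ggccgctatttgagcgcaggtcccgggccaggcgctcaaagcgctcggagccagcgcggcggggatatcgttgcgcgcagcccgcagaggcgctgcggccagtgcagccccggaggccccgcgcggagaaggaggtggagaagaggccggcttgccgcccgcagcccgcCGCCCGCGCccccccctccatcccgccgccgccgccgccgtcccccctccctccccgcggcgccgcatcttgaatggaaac

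Upstream sequences were found for 23 of the 33 channel genes. GCGNGGGCG was in 8 of these 23 (Cacna1b, Cacna1d, Cacna2d1, Cacna2d2, Cacnb3, Hcn2, Scn7a and Scn8a), or 34.8%, against 4.29% of 33469 upstream sequences of the same length. The shorter GC box GGGCGG, which can overlap it, was in 12 of 23 (52.2%), among them the same 8 genes, against 30.5% of all. The cyclic AMP response element TGACGTCA was in 0 of 23 against 1.59% of all, and the orphan nuclear receptor element AAAGGTCA in 0 of 23 against 1.24%. Each motif was searched on both strands. A match describes these letters and is not a binding site.

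By channel class in all 12 libraries, 3 of the 7 tested sodium alpha subunits were lower and 4 higher in blast-boldine, with a median log2 fold change of 0.060. Scn2a had a lowest, median and highest level of 690.1, 788 and 1061 CPM in the 6 blast-controls and 712, 875 and 1009.5 CPM in blast-boldine. Without rat 6 the blast-control values were 690.1, 727 and 962 CPM. The log2 fold change of Scn2a was 0.060 ± 0.16 (SE) in all libraries and 0.083 ± 0.063 (SE) with the set and without rat 6 (edgeR unadjusted p = 0.21). The groups overlapped over all libraries and within set A, and in set B without rat 6 the blast-boldine libraries lay above. The exact permutation p within sets was 0.33 with rat 6 and 0.035 without it, where the difference between sets also entered the statistic.

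Scn8a, a channel of the axon initial segment and nodes of Ranvier, had 459, 722 and 1156 CPM in blast-controls and 497, 694 and 1008 CPM in blast-boldine. Its log2 fold change was -0.048 ± 0.28 (SE), 95% interval -0.66 to 0.56, which narrowed to 0.0097 ± 0.066 (SE), 95% interval -0.13 to 0.15, with the set and without rat 6.

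Scn1a, the main sodium channel of inhibitory neurons, had 217, 236 and 313 CPM in blast-controls and 219, 248 and 319 CPM in blast-boldine, with a log2 fold change of 0.070 ± 0.14 (SE). The highest blast-control value was that of rat 5. Scn3a had 98.3, 102 and 317 CPM and 96.9, 125 and 163 CPM in the same order. Its highest blast-control value was the 20 counts of rat 6, and without rat 6 the blast-controls reached 168 CPM. The 3 tested alpha subunits of low level, Scn4a, Scn7a and Scn9a, had 0 counts in rat 6 and log2 fold changes from -0.10 (Scn4a) to 0.20 (Scn7a), with standard errors of 0.19 to 0.28.

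Of the 3 sodium beta subunits, 1 was lower and 2 higher, with a median log2 fold change of 0.061. Scn3b had 557, 800.0 and 934 CPM in blast-controls and 703, 785 and 922 CPM in blast-boldine, a log2 fold change of 0.061 ± 0.14 (SE). Scn2b, a subunit linked to the alpha subunit by a disulfide bond, had 117, 163 and 231 CPM and 116, 172 and 239.6 CPM, a log2 fold change of 0.094 ± 0.24 (SE) with all libraries and 0.022 ± 0.070 (SE) with the set and without rat 6. Both pairs of ranges overlapped. For Scn4b the fitted log2 difference was -0.011 ± 0.23 (SE).

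Among the L-type pores the median log2 fold change was -0.010 over 3 tested genes, 2 of them lower. Cacna1c had 148, 210.2 and 301 CPM in blast-controls and 139, 207 and 293 CPM in blast-boldine, and Cacna1d 94.3, 162 and 298 CPM and 77.2, 181 and 311 CPM. Values of Cacna1d within each group fell into a low and a high cluster, which were sets A and B. The standard error of its log2 fold change was 0.42 in all libraries (0.12) and 0.094 with the set and without rat 6 (-0.034). Cacna1s had 1 count in rat 6 and at most 2.35 CPM elsewhere.

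The channels of presynaptic release and the R-type pore had a median log2 fold change of -0.028, with 2 of 3 lower. Cacna1e had 571, 849 and 1631 CPM in blast-controls and 526, 838 and 1204 CPM in blast-boldine. The highest blast-control value was rat 6, and without it the blast-controls ran from 571 to 1128 CPM. Cacna1a had 219.6, 315 and 587 CPM and 161, 353 and 506 CPM in the same order, with a log2 fold change of -0.028 ± 0.35 (SE). With the set and without rat 6, Cacna1a stood at -0.15 ± 0.092 (SE), unadjusted p = 0.13, and Cacna1b at -0.074 ± 0.057 (SE), unadjusted p = 0.22.

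All 3 T-type pores had negative fitted differences that were small beside their errors. Cacna1i had 94.998, 143 and 290.0 CPM in blast-controls and 116, 153 and 189 CPM in blast-boldine, a log2 fold change of -0.10 ± 0.23 (SE) and, with the set and without rat 6, -0.22 ± 0.13 (SE), unadjusted p = 0.11. The highest blast-control value of Cacna1i was rat 4. Cacna1h in all 12 libraries had 47.5, 139.8 and 244 CPM in blast-controls and 123, 143 and 187 CPM in blast-boldine, with a log2 fold change of -0.10 ± 0.23 (SE). The lowest of these blast-control values was the 3 counts of rat 6. Cacna1g, the T-type channel of thalamic relay neurons, stood at -0.020 ± 0.24 (SE).

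The 2 leading alpha2delta genes had positive fitted differences in all 12 libraries, each smaller than its standard error, beside the negative one of Cacna2d2. Cacna2d3 had 264, 310.1 and 378 CPM in blast-controls and 284, 305 and 371 CPM in blast-boldine, a log2 fold change of 0.038 ± 0.13 (SE). Cacna2d1 had 246, 286 and 326 CPM and 259, 305 and 345 CPM, a log2 fold change of 0.10 ± 0.13 (SE), 95% interval -0.17 to 0.38, and 0.081 ± 0.056 (SE) with the set and without rat 6 (edgeR unadjusted p = 0.17). The exact permutation p within sets was 0.020 with rat 6 and without it, and 0.33 when diets were exchanged over all 12 libraries. Without rat 6 the difference between sets also entered the statistic. Cacna2d4 had 2 to 13 counts in the 11 deeper libraries.

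The calcium channel beta subunits had a median log2 fold change of 0.042, with 1 of 4 lower. Cacnb3 had 156, 180.5 and 285 CPM in blast-controls and 145, 168 and 209 CPM in blast-boldine, a log2 fold change of -0.16 ± 0.16 (SE). Cacnb1 had 137, 160.2 and 254 CPM and 125, 184 and 252 CPM, a log2 fold change of 0.056 ± 0.23 (SE). Cacnb2, with 103, 121 and 134 CPM in blast-controls and 114, 135 and 151 CPM in blast-boldine, had the smallest p of any channel gene in all 12 libraries, at a log2 fold change of 0.15 ± 0.12 (SE), unadjusted p = 0.24. Cacnb4, a subunit whose loss causes ataxia and seizures in the lethargic mouse, stood at 0.029 ± 0.16 (SE).

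Of the HCN channels 3 of 3 were lower, with a median log2 fold change of -0.16. Hcn2 in all 12 libraries had 63.3, 80.5 and 152 CPM in blast-controls and 65.2, 80.6 and 109.8 CPM in blast-boldine, a log2 fold change of -0.17 ± 0.21 (SE). Hcn3 had 0, 8.83 and 10.2 CPM and 6.15, 7.73 and 9.68 CPM, a log2 fold change of -0.16 ± 0.18 (SE) with all libraries and -0.15 ± 0.11 (SE) with the set and without rat 6. Its lowest blast-control value was the 0 counts of rat 6, and without rat 6 the blast-controls ran from 7.27 to 10.2 CPM, a range that overlapped blast-boldine. Hcn4, also at 0 counts in rat 6, stood at -0.077 ± 0.22 (SE).

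**Figure D4:**
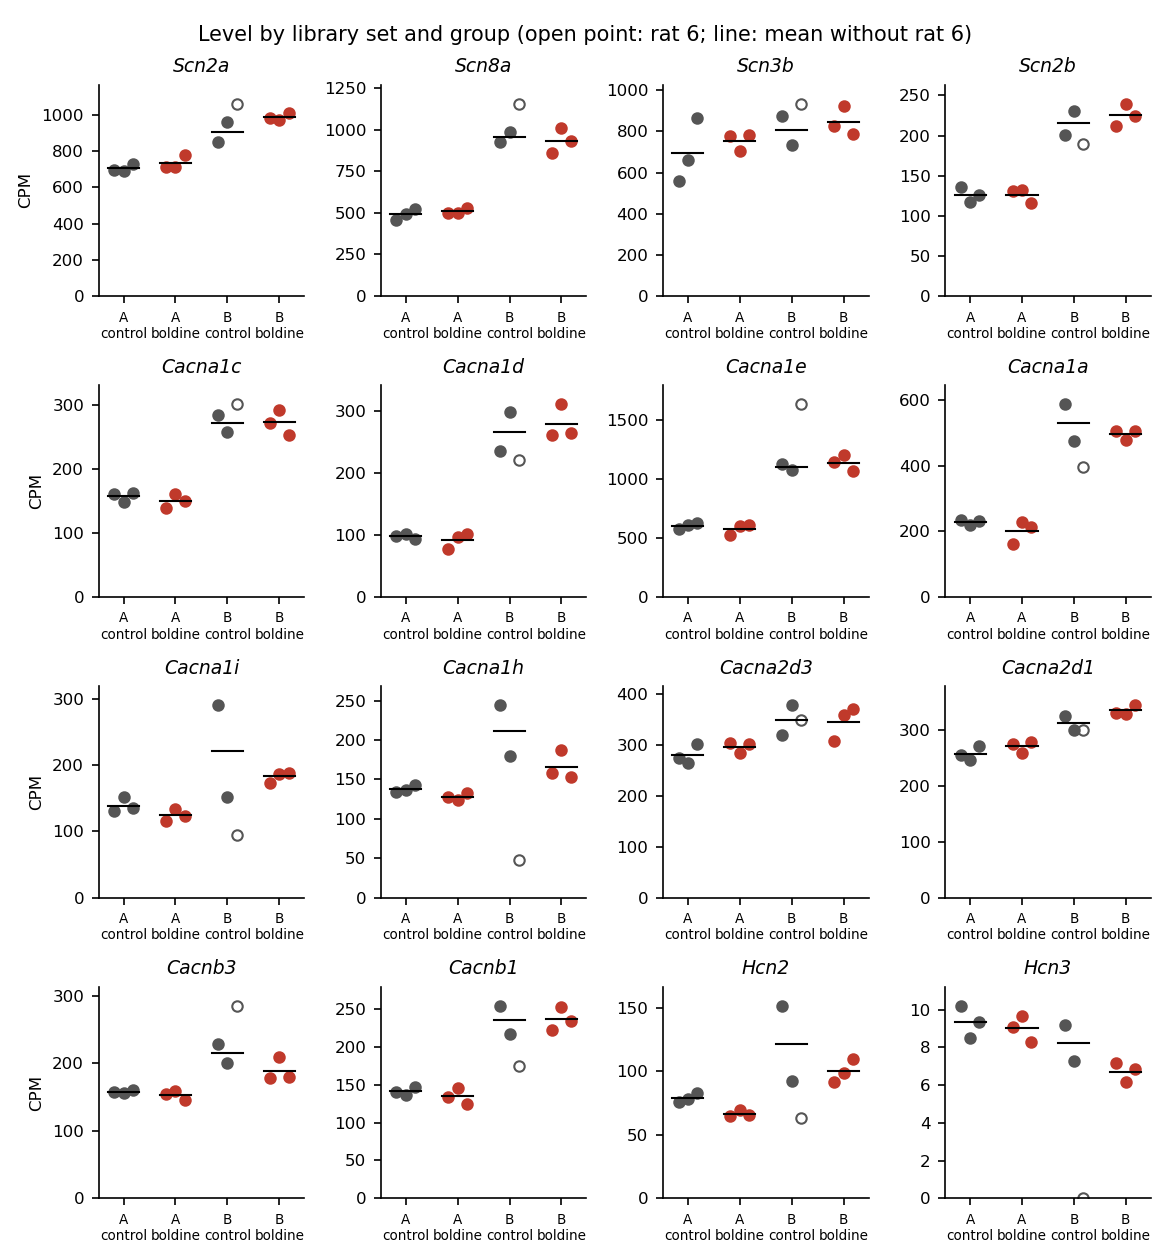
CPM of the 2 genes of highest level per length in each channel class, by library set (A, B) and diet. Filled points are single libraries, the open point is rat 6, and lines are means without rat 6. The step between set A and set B is wider than that between the diets for, among others, Scn8a, Cacna1c, Cacna1d, Cacna1e, Cacna1a, Cacnb1 and Scn2b.

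The channel genes differed more between library sets than between diets. Over the 29 genes the median absolute difference in mean log2 CPM between sets was 0.541, and the median absolute log2 fold change between diets, in the fit with the set and without rat 6, was 0.0809. Over all genes these medians were 0.469 and 0.0850. Since the sets were chosen partly from expression, these values are a description. With rat 6 in, each set held 3 rats of each diet, so the step does not separate the diets. Without rat 6, set B held fewer blast-control than blast-boldine rats. The step then bears on a comparison of diets that leaves the set out of the fit. It also bears on the permutation p-values within sets, which tested pooled means with no term for the set.

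The step was mostly upward in set B. In 18 of 29 channel genes every library of set B (without rat 6) lay above every library of set A, against 24.7% of all genes, and in 1, Scn4b, below. Ranges were apart in 19 of 29 channel genes against 48.6% of all genes. The median difference was 0.54 log2 units for the channel genes and -0.021 for all genes, and 3 exceeded 1 log2 unit. Cacna1d had 77.2 to 101 CPM in set A and 237 to 311 CPM in set B, a ratio of means of 2.89. Cacna1a had 161 to 234 CPM and 475 to 587 CPM, a ratio of 2.37. The third, Cacna1s, was below 3 CPM in every library but rat 6. Scn4b went the other way, with 44.1 to 55.8 CPM in set A and 30.7 to 40.7 CPM in set B.

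**Figure D5:**
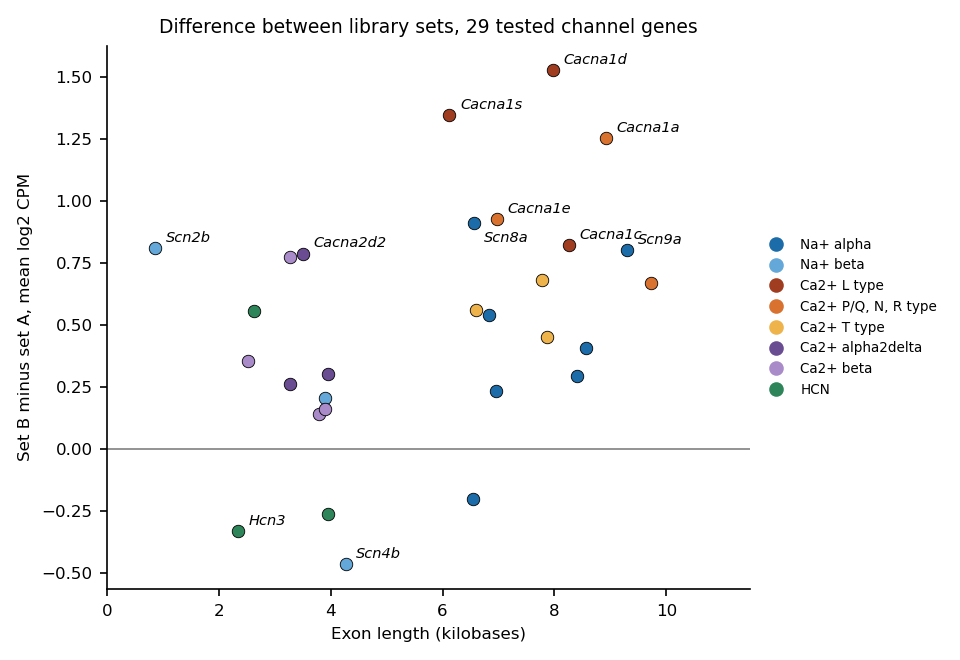
Difference between library sets (set B minus set A, mean log2 CPM, without rat 6) against exon length in kilobases for the 29 tested channel genes. The genes of more than 2-fold difference are Cacna1d, Cacna1s and Cacna1a, and Scn4b, Hcn3, Hcn4 and Scn7a lie below 0.

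The step was uneven across genes, and the order within a class differed between sets. In set A, Scn2a made up 40.4 to 42.2% of the level per length summed over the 9 sodium alpha genes and Scn8a 36.2 to 38.2%, whereas in set B Scn2a made up 34.5 to 38.0% and Scn8a 43.4 to 49.7%. Of the level summed over the 3 sodium beta genes, Scn3b made up 45.96 to 58.3% in set A and 40.5 to 48.1% in set B, and Scn2b 38.3 to 50.7% and 49.9 to 57.7%. Between diets the medians of these shares lay closer: 40.4 and 39.7% for Scn2a and 49.9 and 48.7% for Scn2b, in 5 blast-controls and 6 blast-boldine libraries.

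Other values moved with the sets. The channel genes are long, with a median exon length of 6546 bases against 2209 over all genes tested. Over the 29 genes the log2 of exon length and the difference between sets had Pearson's r = 0.286 (Spearman's rho = 0.357), and over 12529 genes r = 0.193 (rho = 0.225), where the points share libraries and depth. The 3 endothelial markers (Cldn5, Pecam1 and Flt1) summed to 58.0 to 85.4 CPM in set A and 163 to 227 CPM in set B, the 3 smooth muscle markers to 19.4 to 28.9 and 48.5 to 84.3 CPM, and the 3 thalamic markers (Tcf7l2, Lef1 and Prkcd) to 20.2 to 30.2 and 47.9 to 66.5 CPM. The 4 microglial markers summed to 240 to 260 CPM in set A and 107 to 170 CPM in set B, and the 3 neuronal markers (Rbfox3, Snap25 and Syt1) to 1625 to 2460 and 2381 to 2572 CPM. None of these markers was at 0 in any of the 11 libraries. Their part in the step was not tested, and in bulk tissue fewer cells of a type cannot be told apart from less RNA per cell.

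Genes whose products bind or place these channels were counted from lists. The sodium channel list held FGF homologous factors, ankyrins, the initial-segment proteins Sptbn4 and Nfasc and the ubiquitin ligases Nedd4 and Nedd4l, and 9 of its 10 genes were tested. None passed an unadjusted p of 0.05 in edgeR over all 12 libraries, and the median log2 fold change was 0.025. With the set and without rat 6, 2 of 9 passed, both lower, against the 3.54% of all genes given above. Sptbn4, the spectrin of the axon initial segment, had 178 to 250.3 CPM in set A blast-controls, 151 to 184 CPM in set A blast-boldine, 486 to 548 CPM in set B blast-controls and 450.4 to 475 CPM in set B blast-boldine. Its log2 fold change was -0.23 ± 0.10 (SE), unadjusted p = 0.034. Nfasc, the adhesion molecule neurofascin, stood at -0.17 ± 0.077 (SE), unadjusted p = 0.041.

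Of the calcium channel partners (gamma subunits, RGK proteins, Stac adaptors, calmodulins and active zone proteins) 22 of 23 had rows, and 19 were tested in all 12 libraries and 20 without rat 6. None passed an unadjusted p of 0.05 in all 12 libraries, and 1 of 20 did with the set and without rat 6, a share near the 5.35% of all genes in either direction. The 1 gene was Stac2, an adaptor of L-type channels, with 14.1 to 20.1 and 9.38 to 14.9 CPM in set A, and 30.0 to 42.9 and 19.4 to 37.9 CPM in set B, blast-controls first. Its log2 fold change was -0.53 ± 0.19 (SE), unadjusted p = 0.016. The HCN partners and the sodium leak channel Nalcn with its subunits had 4 tested genes of 7 listed, and 0 of 4 passed in either fit. Unc80, Ank2, Stac, Nalf1 and Fam155a were not analysed here.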

How the data were processed

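Per the labels, RNA of 12 rat brains was sequenced. Per the study's methods, hippocampal RNA gave ribosome-depleted, stranded total RNA libraries (TruSeq), reads were cleaned and deduplicated with HTStream and aligned to mRatBN7.2 with STAR. The deposited values are raw read counts per gene, which the authors made with featureCounts by strand, over exons joined by gene name. Deduplication without molecular identifiers, and reads aligned to several places, can lower counts of abundant or duplicated genes.

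Counts were tested over all genes with edgeR 4.0.16 (R 4.3.3): filterByExpr with a minimum count of 10, TMM scaling, a quasi-likelihood test with diet alone, two-sided p-values and Benjamini-Hochberg adjustment over all genes tested. The study's methods name DESeq2, which was run as an alternative (1.42.0). Standard errors are the log2 fold change divided by the square root of F. CPM were computed with TMM library sizes, and log2 CPM for exact permutation tests with a prior count of 2. The permutation statistic was the difference of the pooled group means, with no term for the set. CPM per kilobase used the exon length in the table. Intervals from edgeR include the spread between rats, and floors of 3 counts cover counting error only. P-values assume that each library, 1 per rat, is a replicate. The fits with diet alone were tested on simulated counts that held no step between sets, with the spread taken from a fit with the set. The fit with the set was not tested in this way.

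Of the 36 channel genes the name rule matched, 3 are not reported here, and counts, medians and shares are over the other 33. The genes given in full were the 2 of highest level per length in each class and those with an unadjusted p under 0.05 in edgeR with all libraries, without rat 6, or with the set and without rat 6, and partners likewise in the first or last of these fits. The members, classes, partner lists and marker lists were chosen with earlier results of these data known. Motifs were chosen after values were seen. Alternatives were DESeq2, RLE scaling, no filter, offsets for exon length, the library set as a covariate with and without rat 6, and each library left out.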

Additional observations from a re-analysis of the deposited data

Results flagged for a closer look

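A gap test on the 6 libraries of a diet, run on 58 pairs of channel gene and diet, marked 8 in which the highest or lowest library stood far from the others, where chance marks about 1 in 20 (2.9 of 58). Of these, 5 lay in rat 6. Scn4b and Hcn3 were at 0 CPM there, Scn3a at 317 CPM on 20 counts, Cacnb4 at 63.3 CPM on 4 counts and Cacna1s at 15.8 CPM on 1 count. Rat 4 was far above the other blast-controls for Cacna1i (290.0 CPM) and Hcn2 (152 CPM). Rat 5 was far above the other blast-controls for Scn1a, at 313 CPM. No pair in blast-boldine was marked.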

How the results depend on the processing

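No alternative took a channel gene past an adjusted p of 0.05, and none did with any 1 library left out. The count under an unadjusted p of 0.05 was 0 in edgeR with all libraries, in DESeq2, with RLE scaling, without a filter, with length offsets and with each library left out. It was 2 with the library set as a covariate (Cacna2d2 and Hcn2), 3 with the set and without rat 6 in edgeR, and 3 with both in DESeq2. With a further library left out of the edgeR fit with the set and without rat 6, chosen after seeing the data, Hcn2 and Cacna1h kept negative log2 fold changes but passed 0.05 neither without rat 4 (0.15 and 0.11) nor without rat 12 (0.051 and 0.057), Hcn2 did not without rat 9 (0.051), Cacna1h did not without rat 19 (0.057), and Cacna2d2 did not without rat 5 (0.051). Other genes then passed: Cacna1a and Cacna1i without rat 5 and Cacnb4 without rat 4, all lower, and Cacnb2 without rat 9, higher. The count ran from 1 (without rat 12) to 4 (without rat 5). The exact permutation p of Cacna2d2 with labels exchanged within sets was 0.010 with rat 6 and 0.21 without it, and that of Scn2a 0.33 and 0.035. That of Cacna1h, whose mean difference was positive with rat 6 in, changed sign without it and was 0.40, or 0.17 within sets. Leaving out rat 6 also made set B uneven over diets, so the difference between sets entered these pooled means. The 2 effects on these permutation p-values were not separated.

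The count of channel genes lower in blast-boldine, 16 of 29, ran from 7 (without rat 4) to 19 (without rat 17) when 1 library was left out, and was 9 without rat 20 and 10 without rat 5, rat 32 or rat 35. These fits did not hold the set as a covariate, and each left the diets uneven over the sets. The count was 7 to 13 when a blast-control of set B or a blast-boldine rat of set A was left out. It was 16 to 19 when any other rat was left out. Of 29 channel genes, 10 kept their direction over 19 alternatives: Cacna2d2, Cacnb3 and Hcn3 were lower and 7 higher. The other 19 changed sign at least once, each without an adjusted p under 0.05. Leaving out 1 library at a time gave log2 fold changes of -0.16 to 0.19 for Cacna1a, -0.0031 to 0.21 for Cacna1b, -0.13 to 0.11 for Cacna1c, -0.10 to 0.41 for Cacna1d, -0.23 to 0.10 for Cacna1e, -0.17 to 0.16 for Cacna1g, -0.19 to 0.091 for Cacna1h, -0.17 to 0.16 for Cacna1i, -0.51 to 0.35 for Cacna1s, -0.0085 to 0.13 for Cacna2d3, -0.054 to 0.20 for Cacnb1, -0.052 to 0.091 for Cacnb4, -0.26 to 0.045 for Hcn2, -0.21 to 0.0055 for Hcn4, -0.016 to 0.25 for Scn2b, -0.11 to 0.16 for Scn3a, -0.20 to 0.00069 for Scn4a, -0.089 to 0.079 for Scn4b and -0.17 to 0.10 for Scn8a. Signs also turned with the set as a covariate, with the set and without rat 6, and with both in DESeq2, at log2 fold changes of 0.037, 0.080 and 0.082 for Scn3a, -0.015, -0.034 and -0.032 for Cacna1d, -0.017, -0.074 and -0.072 for Cacna1b, -0.019, -0.040 and -0.038 for Cacnb1, and -0.041, -0.076 and -0.074 for Cacnb4. Scn8a turned in the latter 2 (0.0097 and 0.011), and Cacnb4 in DESeq2 alone (-0.039). The cause of these changes was not tested.

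Shares of the CPM summed over the genes of a class given here changed when counted per kilobase: Scn2a from 44.2 to 39.2%, Scn3b from 78.8 to 50.1%, Cacna1e from 58.3 to 64.9%, Cacna1i from 39.8 to 44.02%, Cacna2d3 from 49.6 to 53.9% and Cacnb3 from 27.4 to 34.9%, since the scale corrects for exon length. Rat 6, with 74008 counts, limits any statement on genes under 47.5 CPM there. No paired analysis was possible because the 2 groups share no rat number.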
